A study of Mus musculus with 6 samples.

Results

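The 10 genes described here are the uncoupling proteins Ucp1, Ucp2 and Ucp3 and 7 genes that drive or accompany heat production in fat, namely Ppargc1a, Ppargc1b, Prdm16, Dio2, Elovl3, Cox8b and Esrra. They were chosen by gene symbol in the deposited table, where all 10 were found among 32244 genes. RNA was taken from epididymal white adipose tissue, a visceral fat depot, of mice labelled as Eepd1 knockout (EKO, 3 libraries) and of wild-type mice (WT, 3 libraries), both on C57BL/6J. Mice of both genotypes had eaten a high-fat diet for 3 months, and the series title names lipolysis, thermogenesis and protein kinase A activation as the study's subject. The labels used here give no age, do not say which part of Eepd1 was deleted or in which cells, and do not say whether the replicates of a genotype were separate animals. P-values therefore measure the spread between these libraries, part of which may be technical.

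Uncoupling proteins are carriers of the inner mitochondrial membrane. Ucp1 lets protons back into the matrix without making ATP, which turns fuel into heat in brown and beige fat cells, whereas Ucp2 is abundant in immune cells and Ucp3 in skeletal muscle and brown fat. Prdm16 is a transcriptional coregulator of the brown and beige fat programme, Ppargc1a and Ppargc1b are coactivators of mitochondrial genes, and Esrra is a nuclear receptor through which both coactivators act. Dio2 encodes the deiodinase that activates thyroid hormone inside the cell, and Elovl3 and Cox8b encode a fatty acid elongase and a cytochrome c oxidase subunit that are widely used as brown fat markers.

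The stretches upstream of Ucp3, Ucp2, Dio2, Cox8b and Prdm16 are shown. The 3 EKO libraries of these genes did not overlap the 3 WT libraries, in either direction, and Ucp3 and Ucp2 are neighbours. Ucp1 (too few counts to be tested) and Ppargc1b (no RefSeq start given) did not overlap either and are not shown. Each line holds the 250 bases before the RefSeq transcription start (GRCm38.p6), read 5′ to 3′ on the gene's strand. Capitals mark matches, on either strand, to the cAMP response element TGACGTCA, its core TGACG, the nuclear receptor element AGGTCA, the myogenic E-box CAGCTG or the TATA box TATAAA. The longer element TNAAGGTCA (bound by ERR receptors) and the PPAR element, a direct repeat of AGGTCA with 1 base between the copies, were searched as well, on both strands.
Ucp3, chr7:100472741-100472990, plus strand: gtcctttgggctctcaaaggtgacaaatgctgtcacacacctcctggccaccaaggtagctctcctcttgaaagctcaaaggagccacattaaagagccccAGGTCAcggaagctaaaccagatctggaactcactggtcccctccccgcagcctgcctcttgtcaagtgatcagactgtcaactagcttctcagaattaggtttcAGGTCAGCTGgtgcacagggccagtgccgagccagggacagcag
Ucp2, chr7:100493108-100493357, plus strand: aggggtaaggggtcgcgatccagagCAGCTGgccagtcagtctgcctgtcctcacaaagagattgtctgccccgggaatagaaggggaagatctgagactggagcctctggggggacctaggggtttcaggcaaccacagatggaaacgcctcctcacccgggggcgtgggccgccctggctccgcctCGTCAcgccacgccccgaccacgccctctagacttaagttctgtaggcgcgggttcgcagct
Dio2, chr12:90739039-90739288, minus strand: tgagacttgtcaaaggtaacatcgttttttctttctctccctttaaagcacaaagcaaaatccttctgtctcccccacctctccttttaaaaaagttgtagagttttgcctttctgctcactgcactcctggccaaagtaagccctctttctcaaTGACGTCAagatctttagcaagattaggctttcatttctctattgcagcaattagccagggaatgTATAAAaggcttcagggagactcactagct
Cox8b, chr7:140900447-140900696, minus strand: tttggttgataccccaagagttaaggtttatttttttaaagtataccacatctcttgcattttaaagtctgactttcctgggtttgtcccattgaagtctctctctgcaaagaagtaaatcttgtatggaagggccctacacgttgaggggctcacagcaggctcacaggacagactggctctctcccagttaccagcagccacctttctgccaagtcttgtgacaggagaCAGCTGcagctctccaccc
Prdm16, chr4:154636874-154637123, minus strand: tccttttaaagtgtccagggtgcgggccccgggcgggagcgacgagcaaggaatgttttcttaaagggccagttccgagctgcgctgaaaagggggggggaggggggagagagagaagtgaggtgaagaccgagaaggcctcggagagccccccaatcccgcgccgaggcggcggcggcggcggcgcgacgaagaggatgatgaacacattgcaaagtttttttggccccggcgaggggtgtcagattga

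The Dio2 stretch held a full cAMP response element from 95 to 88 bases before the start, in which the core is read on both strands, and a TATA box from 30 to 25 bases before it. A full element stood in 1.55% of the 32851 stretches of this length, and the TATA letters in 12.4%. The Ucp3 stretch held AGGTCA at 149 to 144 and at 44 to 39 bases before its start, and the second match shares bases with an E-box at 40 to 35. AGGTCA stood in 14.0% of all stretches and the E-box in 13.0%. The Ucp2 stretch held an E-box and 1 TGACG core (in 17.8% of all stretches), the Cox8b stretch held 1 E-box, and the Prdm16 stretch held none of the motifs searched. Neither longer element was found in these 5 stretches, and TNAAGGTCA stood in 1.14% of all stretches and the PPAR element in 0.0335%. The stretch before Ucp3 was 54.8% G and C with 3 CpG, that before Ucp2 63.6% with 16 CpG, and that before Prdm16 62.4% with 22 CpG. The Ucp1 stretch, not shown, held 1 TGACG core at 147 to 143 and AGGTCA at 14 to 9 bases before its start. A match says only that the letters are there. RefSeq starts were given for 8 of the 10 genes in the table used, and the Dio2 start lies upstream of the gene's first base in the deposited table (90738438).

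Libraries held between 17215072 and 18330206 counts, and 16121 genes had enough counts to be tested. Eepd1 itself was at 152, 47.7 and 116 CPM (counts after scaling every library to the same size) in EKO replicates 1 to 3, against 244, 304 and 192 CPM in WT replicates 1 to 3, a log2 difference of -1.23 ± 0.42 (SE, edgeR adjusted p = 0.106). Reads from outside the deleted part cannot check the genotype. With all 6 libraries in the edgeR quasi-likelihood test, no gene reached an adjusted p under 0.05 (lowest 0.0628), although 5264 genes had an unadjusted p under 0.05. DESeq2 called 3392 genes on the same counts. The libraries of a genotype lay far apart, with a biological coefficient of variation of 37%. WT replicate 2 stood apart: the 10 testis markers summed to 2502 CPM there and to between 0.826 and 130 CPM in the other 5 libraries. It also had the lowest macrophage transcripts. Values without it are therefore given beside results of the 10 genes that move with it by over 1.5 times or across a threshold. Some other results are given without it as well.

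Of the 8 thermogenic genes with enough counts to test, none passed the edgeR threshold, as for all 16121 genes (0%). DESeq2 called 4 of the 8 (Ucp3, Prdm16 and Cox8b lower, Dio2 higher in EKO), where it called 21.0% of all genes with an adjusted p. The authors' deposited table marks 3 of the 8 as significant (Ucp3, Cox8b and Dio2), against 10.1% of its genes. By edgeR at an unadjusted p under 0.05, 2 of the 8 were higher and 3 lower in EKO, against 18.9% and 13.8% of all genes (32.7% in either direction). At an adjusted p under 0.10, edgeR called 4 of 8, against 22.1% of all genes. The groups did not overlap for 6 of the 8, 2 higher and 4 lower in EKO, where this held for 25.1% of all tested genes on the higher side, 17.7% on the lower side and 42.8% in all. Cox8b is counted among the 4 lower genes, and also in the DESeq2, deposited-table, unadjusted p and adjusted p under 0.10 counts. It passed the count filter of the edgeR test through its WT libraries, since only 1 EKO library was above the filter's 0.575 CPM.

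**Figure D1:**
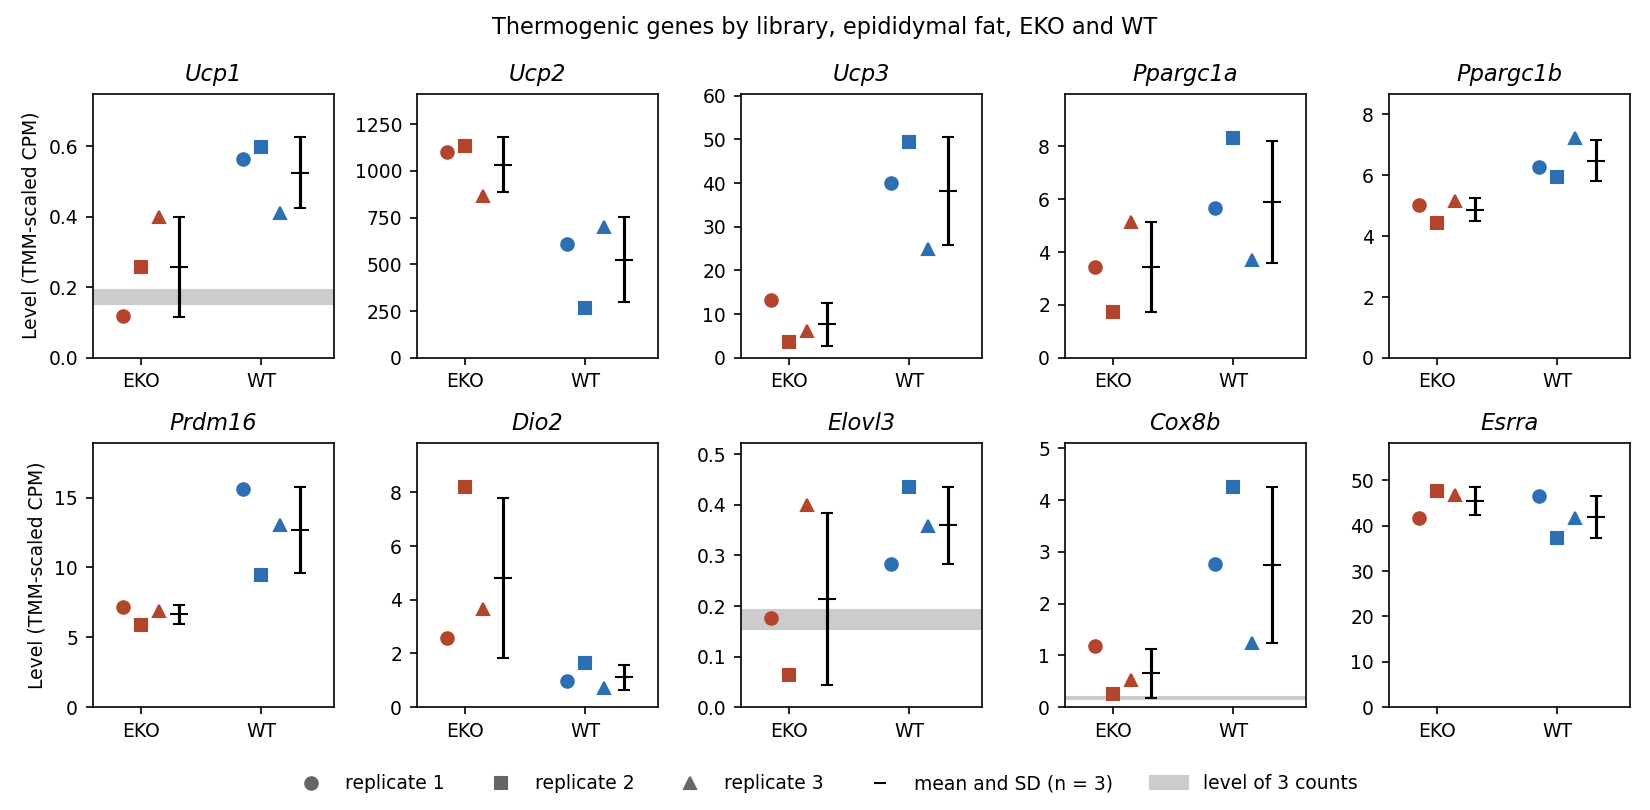
Level of each of the 10 genes (CPM, linear axes from 0) in EKO libraries (left) and WT libraries (right), with the mean and SD of 3 libraries and, for the 3 genes with the fewest counts, a grey band at the level of 3 counts (0.154 to 0.192 CPM). For Ucp2 and Dio2 all EKO points lie above all WT points, for Ucp3, Prdm16, Ppargc1b, Cox8b and Ucp1 they lie below them, and Ppargc1a, Elovl3 and Esrra overlap.

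Per transcript length (TPM, an abundance scaled for both transcript length and library total), Ucp2 was the most abundant of the 10 genes in both genotypes, at 602 ± 68.6 TPM in EKO and 324 ± 152 TPM in WT (SD, n = 3 each). Esrra came next at 47.2 ± 3.14 TPM in EKO and 45.4 ± 6.56 TPM in WT. Ucp3 was at 7.39 ± 4.93 TPM in EKO and 37.4 ± 10.4 TPM in WT, and Cox8b at 4.27 ± 3.19 TPM in EKO and 18.2 ± 9.18 TPM in WT. Ucp3 was above Cox8b in each of the 6 libraries, although their ranges overlapped within each genotype. Ppargc1b followed at 3.11 ± 0.390 TPM in EKO and 4.32 ± 0.663 TPM in WT. Below it the order differed between the genotypes. In EKO, Dio2 (1.90 ± 1.08 TPM), Prdm16 (1.81 ± 0.260 TPM) and Ppargc1a (1.26 ± 0.667 TPM) came before Ucp1 (0.369 ± 0.211 TPM) and Elovl3 (0.271 ± 0.224 TPM). In WT, Prdm16 (3.60 ± 0.982 TPM) and Ppargc1a (2.18 ± 0.750 TPM) came before Ucp1 (0.774 ± 0.118 TPM), Elovl3 (0.461 ± 0.0837 TPM) and Dio2 (0.454 ± 0.170 TPM). In EKO, neighbours from Ucp3 downwards had overlapping ranges. In WT, the ranges of neighbours did not overlap between Ucp2 and Esrra, Cox8b and Ppargc1b, Ppargc1a and Ucp1, and Ucp1 and Elovl3.

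Ucp1, the defining gene of thermogenic adipocytes, was near the counting limit in every library, with 1 library under 3 counts. It had 2, 4 and 7 counts in EKO replicates 1 to 3, against 10, 11 and 8 counts in WT replicates 1 to 3. All 3 EKO libraries were below all 3 WT libraries, but EKO replicate 3 and WT replicate 3 differed by 1 count. Its mean level was 0.258 CPM in EKO and 0.525 CPM in WT, 2.03-fold lower in EKO. The exact 95% binomial interval (Clopper-Pearson, counting error only) ran from 0.0139 to 0.415 CPM of the library total in EKO replicate 1 and from 0.276 to 1.06 CPM in WT replicate 1. In replicate 3 the intervals nearly coincided, from 0.163 to 0.838 CPM in EKO and from 0.188 to 0.860 CPM in WT. Ucp1 failed the count filter of the edgeR test. The exact two-sided permutation test over the 6 libraries gave p = 0.1, the smallest value that 3 against 3 allows.

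Ucp2, the uncoupling protein of macrophages and many other cells, stood higher in EKO. It was at 1102, 1132 and 866 CPM in EKO replicates 1 to 3, against 607, 268 and 700 CPM in WT replicates 1 to 3. All EKO libraries were above all WT libraries, and WT replicate 2 was the lowest by a wide margin. The means were 1033 ± 145 CPM in EKO and 525 ± 227 CPM in WT, 1.97-fold higher in EKO (SD, n = 3 each, log2 0.98 ± 0.37 SE, edgeR adjusted p = 0.127, DESeq2 adjusted p = 0.0546). Without WT replicate 2 the log2 difference was 0.60 (edgeR adjusted p = 0.102).

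Ucp3, which lies immediately upstream of Ucp2 on chromosome 7 with 6904 bases between them, differed the other way. It was at 13.2, 3.59 and 6.18 CPM in EKO replicates 1 to 3, against 40.1, 49.3 and 24.9 CPM in WT replicates 1 to 3. The highest EKO library was below the lowest WT library. The means were 7.66 ± 4.98 CPM in EKO and 38.1 ± 12.3 CPM in WT, so that Ucp3 was 4.97-fold lower in EKO (log2 -2.31 ± 0.51 SE, edgeR adjusted p = 0.0630, DESeq2 adjusted p = 0.000181). Its log2 difference was -2.13 without WT replicate 2 and -2.94 without EKO replicate 1, with edgeR adjusted p = 0.0741 and 0.110.

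The TPM ratio of Ucp2 to Ucp3 within a library put both genes on 1 scale that does not depend on library size. It was 51.2, 193 and 86.1 in EKO replicates 1 to 3, against 9.29, 3.34 and 17.3 in WT replicates 1 to 3, with no overlap (exact two-sided permutation p = 0.1, the smallest possible). Ucp2 was higher and Ucp3 lower in EKO without overlap, so their ratio had to separate the groups. Its non-overlap and p therefore add nothing to the results of the single genes. Of the summed TPM of the 3 uncoupling proteins, Ucp3 made up 1.92, 0.514 and 1.15% in the EKO libraries, against 9.70, 22.9 and 5.47% in the WT libraries. Ucp1 made up at most 0.111% in EKO and at most 0.417% in WT, and Ucp2 the remainder. Both genes overlap a gene on the other strand, and whether counting used the strand is not stated in the sources used here. The Ucp3 antisense gene Gm10603 had 36, 31 and 27 counts in EKO and 102, 98 and 53 in WT, where Ucp3 had 224, 56 and 108 in EKO and 710, 905 and 485 in WT. Dnajb13, which overlaps Ucp2, had 231 to 248 counts in EKO and 290 to 704 in WT, against 15152 to 18681 in EKO and 4929 to 13644 in WT for Ucp2.

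Among the transcriptional regulators, Prdm16 separated the genotypes most clearly. It was at 7.19, 5.90 and 6.86 CPM in EKO replicates 1 to 3, against 15.6, 9.48 and 13.0 CPM in WT replicates 1 to 3. The EKO libraries were close together and all below the WT libraries. The means were 6.65 ± 0.672 CPM in EKO and 12.7 ± 3.07 CPM in WT, 1.91-fold lower in EKO (log2 -0.93 ± 0.24 SE, edgeR adjusted p = 0.0675, DESeq2 adjusted p = 0.0109). Without WT replicate 2, its lowest WT library, the log2 difference was -1.16 and edgeR called it (adjusted p = 0.0444). It was the only one of the 8 called then, where 2.69% of all genes were called.

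The PGC-1 coactivators differed less. Ppargc1a was at 3.42, 1.73 and 5.15 CPM in EKO replicates 1 to 3, against 5.65, 8.33 and 3.70 CPM in WT replicates 1 to 3. The groups overlapped, since EKO replicate 3 was above WT replicate 3 (log2 -0.78 ± 0.48 SE, edgeR adjusted p = 0.295). The log2 difference was -0.47 without EKO replicate 2, -0.49 without WT replicate 2 and -1.19 without EKO replicate 3. Ppargc1b was at 5.01, 4.43 and 5.15 CPM in EKO and at 6.27, 5.94 and 7.24 CPM in WT. All its EKO libraries were below all its WT libraries by a small margin (4.86 ± 0.383 CPM in EKO and 6.48 ± 0.676 CPM in WT, log2 -0.41 ± 0.20 SE, edgeR adjusted p = 0.209). The TPM ratio of Ppargc1a to Ppargc1b was 0.391 ± 0.172 in EKO and 0.531 ± 0.253 in WT and overlapped.

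Esrra, the receptor that both coactivators bind, was at 41.8, 47.6 and 46.8 CPM in EKO replicates 1 to 3, against 46.5, 37.3 and 41.8 CPM in WT replicates 1 to 3. The groups overlapped through EKO replicate 1, which was below WT replicate 1, while EKO replicates 2 and 3 were above all WT libraries. The means were 45.4 ± 3.18 CPM in EKO and 41.9 ± 4.58 CPM in WT. The log2 difference was 0.12 ± 0.12 (SE, edgeR adjusted p = 0.516) and -0.01 without WT replicate 2. Esrra overlaps Trmt112 on the other strand, which had 316 to 374 counts in EKO and 248 to 344 in WT where Esrra had 708 to 819 in EKO and 685 to 822 in WT.

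Dio2 was the gene with the largest difference on the higher side among the 8. It had 44, 128 and 64 counts in EKO replicates 1 to 3, against 17, 30 and 14 counts in WT replicates 1 to 3, or 2.59, 8.21 and 3.66 CPM in EKO and 0.961, 1.63 and 0.719 CPM in WT. Every EKO library was above every WT library, and EKO replicate 2 alone was far above the rest. The means were 4.82 ± 2.98 CPM in EKO and 1.10 ± 0.474 CPM in WT, 4.37-fold higher in EKO (log2 2.12 ± 0.55 SE, edgeR adjusted p = 0.0685, DESeq2 adjusted p = 0.00988). The log2 difference was 1.49 without EKO replicate 2 and 2.45 without WT replicate 2 (edgeR adjusted p = 0.216 and 0.0764). The antisense gene Gm26512 had at most 9 counts in EKO and at most 15 in WT.

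Cox8b, the form of cytochrome c oxidase subunit 8 found in brown fat and muscle, had 20, 4 and 9 counts in EKO replicates 1 to 3, against 49, 78 and 24 counts in WT replicates 1 to 3. In CPM it was at 1.18, 0.257 and 0.515 in EKO and at 2.77, 4.25 and 1.23 in WT. The highest EKO library and the lowest WT library nearly met, at 20 and 24 counts. The log2 difference was -2.06 ± 0.68 (SE, edgeR adjusted p = 0.0979, DESeq2 adjusted p = 0.0448). It was -2.79 without EKO replicate 1 and -1.66 without WT replicate 2 (edgeR adjusted p = 0.116 and 0.201). Cox8b passed the count filter through its WT libraries, where it is high, so these p-values are description and not support for a difference. Cox8a, the form found in most tissues, was at 190, 151 and 165 CPM in EKO and at 250, 290 and 201 CPM in WT. The TPM ratio of Cox8a to Cox8b was 106, 386 and 209 in EKO replicates 1 to 3, against 59.1, 44.8 and 107 in WT replicates 1 to 3, with overlap.

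Elovl3, an elongase of very long chain fatty acids induced by cold in brown fat, was near the counting limit like Ucp1. It had 3, 1 and 7 counts in EKO replicates 1 to 3, against 5, 8 and 7 counts in WT replicates 1 to 3. EKO replicates 1 and 2 were at or under 3 counts, the groups overlapped, and the exact two-sided permutation p was 0.3. It failed the count filter, and a difference was not detectable at this depth. With a mean under 1 CPM taken as near the counting limit, Ucp1 and Elovl3 were near it in both genotypes, and Cox8b in EKO. Dio2 in WT was just above it at a mean of 1.10 CPM, with WT replicates 1 and 3 at 0.961 and 0.719 CPM.

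**Figure D2:**
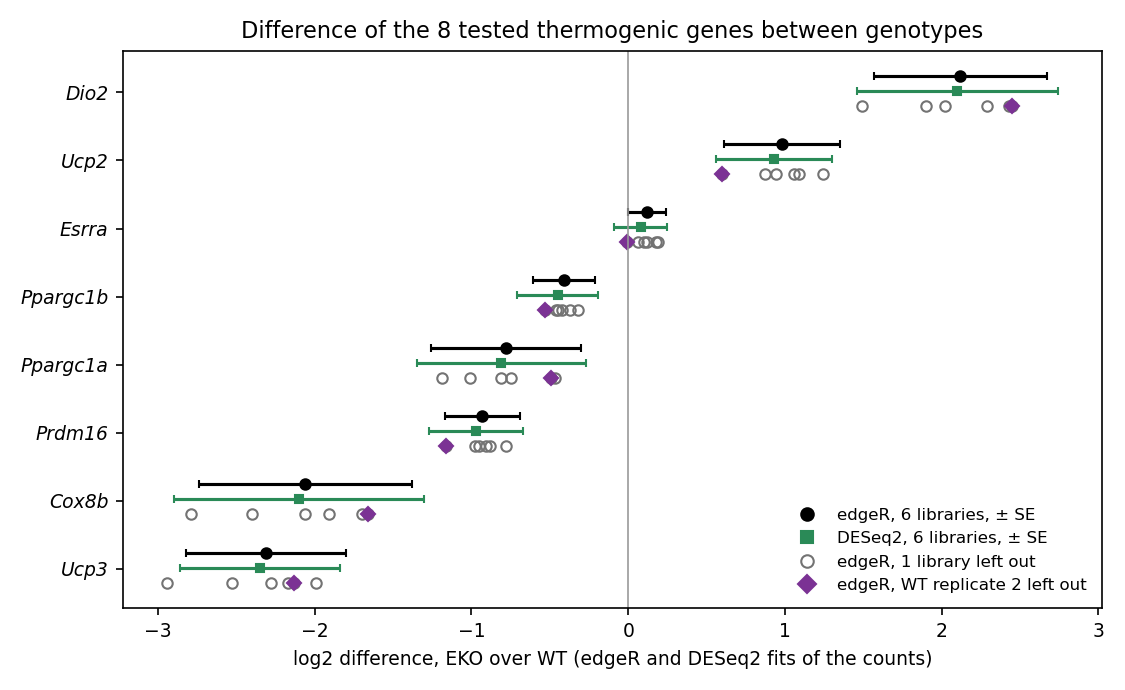
Log2 difference of EKO over WT for the 8 tested genes, from edgeR (black, ± SE) and DESeq2 (green, ± SE) on all 6 libraries and from edgeR with 1 library left out (open circles, and purple diamonds for WT replicate 2). Dio2 and Ucp2 lie above 0 and Ucp3, Cox8b, Prdm16, Ppargc1a and Ppargc1b below 0 in every fit drawn, while Esrra is at -0.01 without WT replicate 2.

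Markers of cell types also differed in level between the genotypes. All 12 adipocyte markers were lower in EKO (median log2 -1.92, 11 with groups that did not overlap), and their summed level was 12450, 4829 and 9355 CPM in EKO replicates 1 to 3, against 25287, 29979 and 20089 CPM in WT replicates 1 to 3. All 12 macrophage markers were higher in EKO with no overlap (median log2 1.68), and their summed level was 18808, 33060 and 20193 CPM in EKO, against 6917, 2207 and 7151 CPM in WT. The 8 endothelial markers were also all lower in EKO without overlap, with a summed level of 857, 447 and 639 CPM in EKO and 1322, 1145 and 1295 CPM in WT. Over all tested genes, groups did not overlap for 25.1% on the higher side and 17.7% on the lower side. Other marker lists separated less. All 6 mesothelial markers were lower in EKO but overlapped. Of 10 lymphocyte markers 6 were higher and 4 lower, and of 7 progenitor markers 6 were higher and 1 lower. With all 6 libraries, edgeR called 0 of these markers. Without WT replicate 2 it called 6 of the 12 macrophage, 1 of the 8 endothelial and 0 of the 12 adipocyte markers. Of all genes, 2.69% were called then. None of the adipocyte and macrophage markers was at 0 in any library. In bulk tissue, fewer cells of a type and less RNA per cell cannot be told apart. The part of these cell types in the differences of the 10 genes was not tested.

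Set against the mean log2 CPM of the 12 adipocyte markers in the same library, Ucp3 and Cox8b overlapped between the genotypes. Ucp3 lay at -5.25 ± 0.23 in EKO and at -5.02 ± 0.14 in WT (log2 units, SD, n = 3 each), a difference of -0.23. Cox8b lay at -8.88 ± 0.24 in EKO and at -8.93 ± 0.50 in WT, a difference of 0.06. The scale with nothing added was chosen after seeing the data. With 0.5 CPM added to every level, Cox8b stood higher in EKO by 0.77 without overlap (7 of the 8 did then, against 91.0% of all tested genes), and the difference of Ucp3 was -0.14 with overlap. The other 6 tested genes stood higher in EKO without overlap, by 1.33 for Prdm16 to 4.27 for Dio2, as did 87.4% of all tested genes, so this is no result about the 6.

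Set against the 12 macrophage markers, Dio2 lay at -8.13, -7.10 and -7.62 log2 units in EKO replicates 1 to 3, against -8.35, -6.09 and -8.93 in WT replicates 1 to 3, with overlap. Ucp2 lay at 0.29 ± 0.29 in EKO and at 1.07 ± 0.17 in WT on that scale, lower in EKO by 0.78 log2 units without overlap. All 7 tested genes other than Dio2 were lower in EKO without overlap, as were 87.3% of all tested genes. The markers' own levels differ between the genotypes, so these are descriptions of ratios and not tests.

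**Figure D3:**
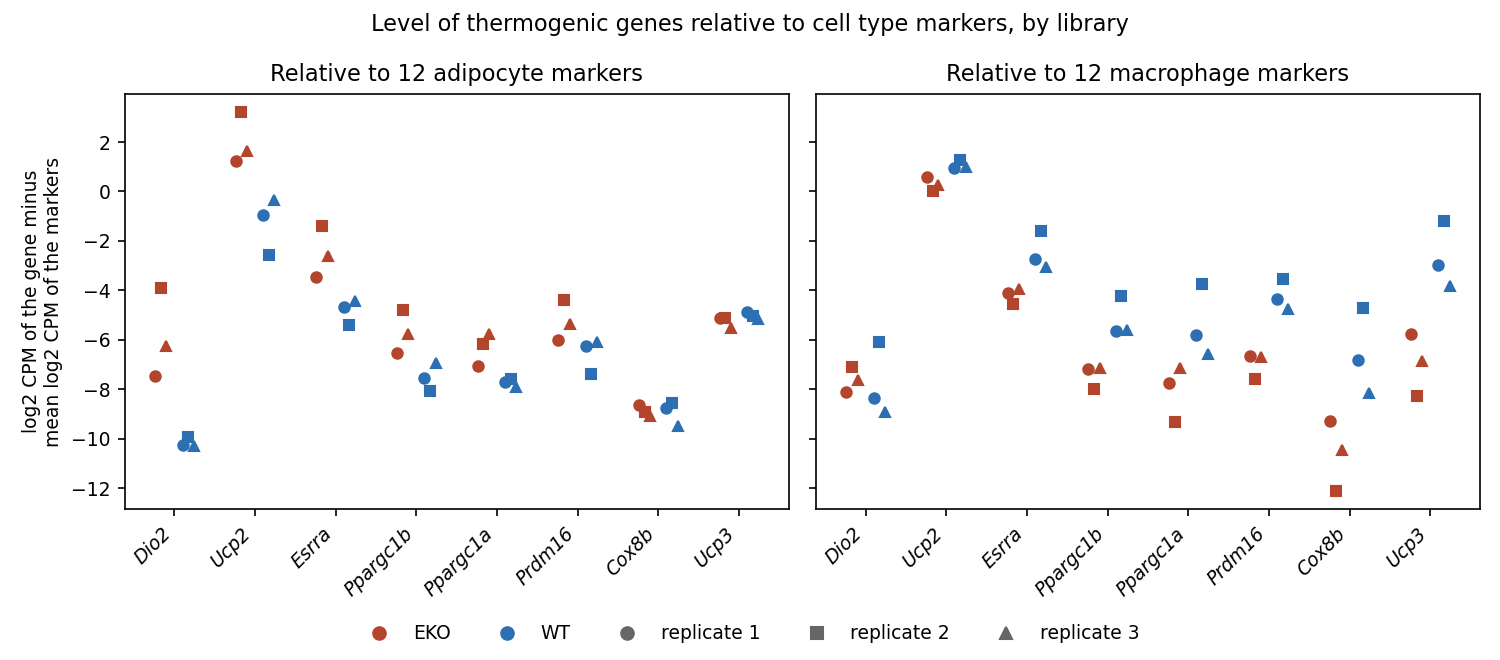
Log2 CPM of each tested gene minus the mean log2 CPM of 12 adipocyte markers (left panel) or 12 macrophage markers (right panel), 1 point per library, EKO left of WT. Against adipocyte markers Ucp3 and Cox8b overlap between EKO and WT (Cox8b does not with 0.5 CPM added), and against macrophage markers Dio2 does.

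Skeletal muscle, which expresses Ucp3, Cox8b and Ppargc1a, was checked with 12 markers, 10 of which matched a row and 7 of which could be tested. The 10 summed to 14.1, 6.99 and 14.2 CPM in EKO and to 17.6, 35.6 and 14.3 CPM in WT. The muscle creatine kinase Ckm had 0 counts in 5 libraries and 1 in EKO replicate 3. Of the 7 tested, 3 were higher and 4 lower in EKO (median log2 -0.71). The 3 higher ones, named after their values were seen, were Tnnt3, Tnni2 and Pvalb. They differed by log2 0.64, 0.60 and 0.24 and overlapped between the genotypes. Myoz1, too low to be tested and also named after its values were seen, had 7, 18 and 10 counts in EKO and 3, 4 and 8 in WT. In CPM it was higher in EKO without overlap, with EKO replicate 1 (0.413) and WT replicate 3 (0.411) nearly equal. Among the 4 lower ones, the fast fibre actinin Actn3 had 22, 6 and 50 counts in EKO and 50, 98 and 32 in WT, and overlapped. The skeletal actin Acta1 was at 6.13, 1.22 and 4.92 CPM in EKO and at 6.39, 26.6 and 6.62 CPM in WT, all EKO libraries below all WT libraries (edgeR adjusted p = 0.193). The myosin light chain Mylpf was at 0.767, 0.641 and 0.572 CPM in EKO and at 1.24, 1.96 and 0.821 CPM in WT, also without overlap (edgeR adjusted p = 0.153). The part of muscle transcripts in the levels of these genes was not tested.

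By likeness over the 6 libraries (Pearson r of log2 (CPM + 0.5), highest of 14961 genes at 1 CPM or more, n = 6), Ucp2 was nearest to Ikbke (r = 0.999), 4930404N11Rik (0.998) and Ticam2 (0.998). Ikbke encodes a kinase of innate immune signalling and Ticam2 a Toll-like receptor adaptor. Ucp3 was nearest to Opn3 (an opsin), Pnpla2 (adipose triglyceride lipase) and Eif4a2 (a translation initiation helicase), each at r = 0.999. Esrra was nearest to Dad1 (0.983), Gpr132 (0.975) and Rabif (0.975). Such values are high because they are the best of many genes over few libraries that also share the genotype difference.

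The wider pathway was described with 7 further lists of related genes. None of their members passed the edgeR threshold, as for all genes, so each list is given by its direction and by the share with groups that did not overlap, which was 42.8% over all tested genes. Over all genes, 51.3% were higher and 48.7% lower in EKO, with a median log2 difference of 0.02. The 8 tested thermogenic genes had 3 higher and 5 lower and a median of -0.60.

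Among carriers related to the uncoupling proteins, 3 of 5 were higher and 2 lower in EKO, with a median log2 of 0.28 (0.18 without EKO replicate 2 or when scaled by library totals) and 4 without overlap. Slc25a30, a carrier of the same family, was at 59.6 ± 2.59 CPM in EKO and 38.0 ± 3.90 CPM in WT. Its edgeR adjusted p of 0.0628 equalled the lowest of all genes. Other genes shared this value, among them Nrip1, Zfp423, Thra and Clstn3. The ADP/ATP carriers differed little and in opposite directions, Slc25a4 at 178 ± 3.57 CPM in EKO and 210 ± 25.6 CPM in WT, and Slc25a5 at 324 ± 31.2 CPM in EKO and 266 ± 7.80 CPM in WT.

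In the PGC-1 and ERR list, 6 of 13 tested genes were higher and 7 lower (median -0.21, and -0.11 without WT replicate 2), and 7 did not overlap. Perm1, a regulator induced by PGC-1 and ERR in muscle, was at 21.2 ± 2.46 CPM in EKO and 5.87 ± 3.42 CPM in WT (3.60-fold higher in EKO, log2 1.85 ± 0.45 SE, edgeR adjusted p = 0.0662, and 0.0487 without WT replicate 2). Nrip1, a corepressor that restrains oxidative genes in fat, was 2.75-fold lower in EKO at 63.0 ± 15.4 CPM, against 174 ± 63.5 CPM in WT (edgeR adjusted p = 0.0628). Ncoa3, a nuclear receptor coactivator, was 1.67-fold higher in EKO (139 ± 21.0 CPM, against 83.2 ± 17.8 CPM in WT).

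In the list of PRDM16 partners and brown and beige transcription factors, 7 of 17 tested genes were higher and 10 lower (median -0.28, and -0.41 without WT replicate 2), and 10 did not overlap. Zfp423, which holds white adipocytes back from a beige state in mice, was 2.16-fold lower in EKO, at 27.2 ± 7.07 CPM against 58.7 ± 6.39 CPM in WT (log2 -1.11 ± 0.22 SE, edgeR adjusted p = 0.0628). Ppara, the receptor of fatty acid oxidation genes, was at 2.00 ± 0.705 CPM in EKO and 6.81 ± 2.35 CPM in WT. Pparg, the master receptor of adipocytes, was at 91.8 ± 18.7 CPM in EKO and 164 ± 35.4 CPM in WT. Some further genes of the list are named here after their values were seen. Ehmt1, Med1 and Cebpb differed by log2 0.03, 0.15 and 0.60 and overlapped. Ctbp1, Ctbp2 and Zfp516 were higher in EKO without overlap, by log2 0.17, 0.44 and 0.51. They were the only 3 of the list to be so, and 7 were lower without overlap.

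Around Dio2, 1 of 6 tested genes of thyroid hormone handling was higher and 5 lower in EKO (median -0.39), and 4 did not overlap. The thyroid hormone receptors were both lower in EKO, Thra at 43.7 ± 3.67 CPM against 64.5 ± 5.46 CPM in WT (edgeR adjusted p = 0.0628) and Thrb at 13.8 ± 5.84 CPM against 31.0 ± 7.49 CPM in WT (edgeR adjusted p = 0.0819). The transporter Slc16a10 was at 106 ± 9.23 CPM in EKO and 78.4 ± 9.43 CPM in WT. The transporter Slco1c1 had at most 3 counts in any library. Dio3, the inactivating deiodinase and added to the named genes after its values were seen, was at 0.757 ± 0.367 CPM in EKO and 0.788 ± 0.167 CPM in WT, with overlap.

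Effectors of brown and beige fat had no common direction, with 9 of 17 tested genes higher and 8 lower (median 0.04) and 6 without overlap. The median was -0.30 without EKO replicate 1, -0.18 without EKO replicate 3, -0.12 without WT replicate 1 and -0.13 without WT replicate 2. Acot11, an acyl-CoA thioesterase induced in brown fat by cold, was 2.95-fold higher in EKO (13.7 ± 4.62 CPM, against 4.65 ± 2.00 CPM in WT), and Tmem26, a beige cell surface marker, 2.63-fold higher (3.18 ± 0.780 CPM in EKO and 1.21 ± 0.508 CPM in WT). Clstn3, whose locus also encodes an adipocyte form that these counts do not separate, was 2.74-fold lower in EKO (10.6 ± 2.63 CPM, against 29.2 ± 9.27 CPM in WT, edgeR adjusted p = 0.0628). Sln, a calcium pump regulator, had at most 3 counts in any library. Cidea, a droplet protein of brown fat named after its values were seen, was at 0.996 ± 0.638 CPM in EKO and 3.02 ± 1.92 CPM in WT and overlapped.

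Of the other elongases, 2 of 5 tested were higher and 3 lower (median -0.07), and 1 did not overlap. Elovl1 was at 117 ± 27.1 CPM in EKO and 65.7 ± 17.9 CPM in WT, and Elovl7 at 1.88 ± 0.580 CPM in EKO and 1.12 ± 0.361 CPM in WT. Elovl2 was at 0, 0 and 5.83 CPM in EKO and at 0.791, 36.3 and 0.0513 CPM in WT, so WT replicate 2 set its level. Without that library the list's median was 0.56. Of cytochrome c oxidase subunits with tissue forms, 2 of 9 tested were higher and 7 lower (median -0.24), and 6 did not overlap. Cox4i2, a subunit form induced by low oxygen, was 2.20-fold lower in EKO (1.59 ± 0.560 CPM, against 3.51 ± 0.0814 CPM in WT), and Cox7a2l, a supercomplex factor, was at 141 ± 5.19 CPM in EKO and 113 ± 8.47 CPM in WT.

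**Figure D4:**
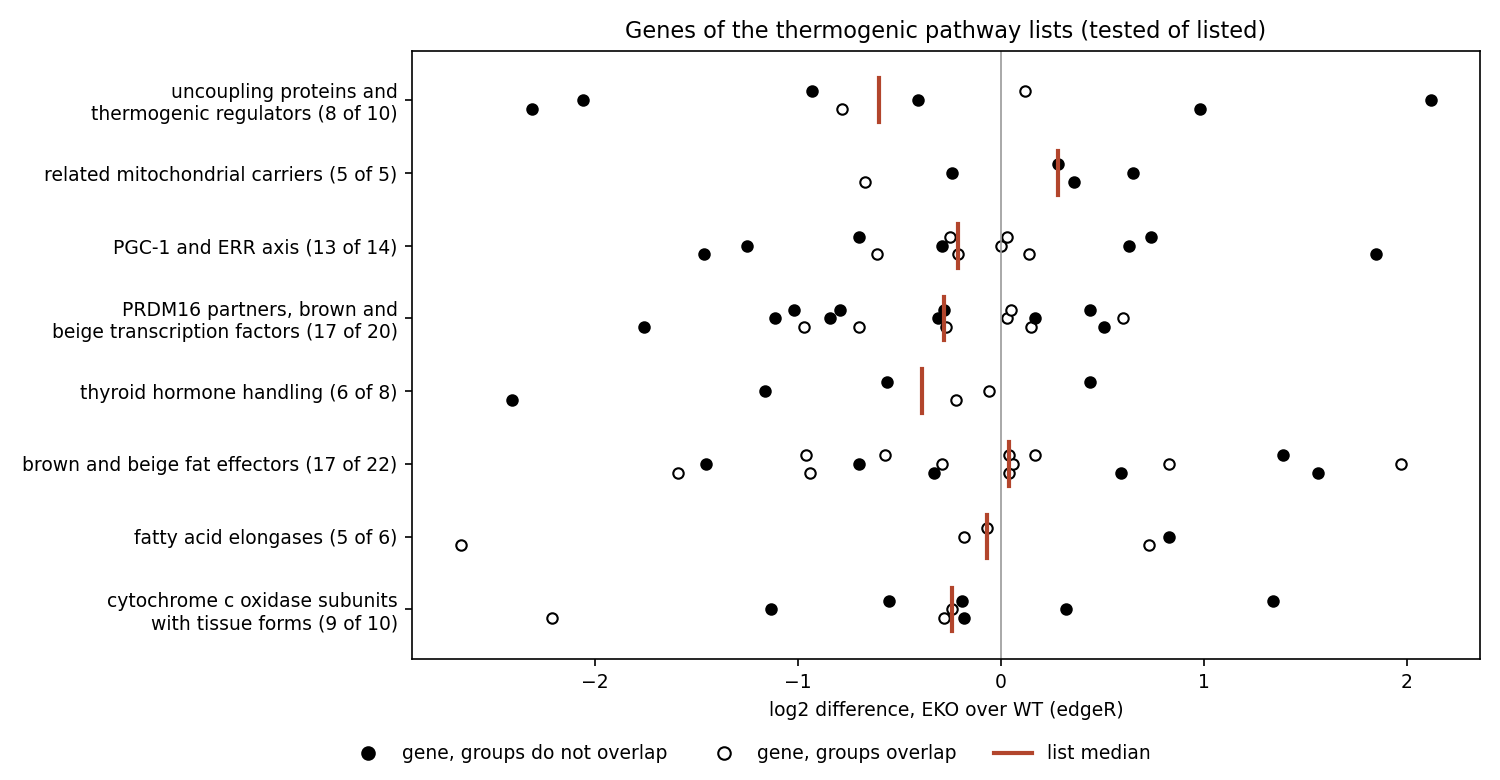
Log2 difference of EKO over WT for each tested gene of the 8 lists, with filled points where the 3 EKO libraries do not overlap the 3 WT libraries and a red line at the list median. Genes lie on both sides of 0 in every list, and the medians run from -0.60 for the uncoupling proteins and thermogenic regulators to 0.28 for related mitochondrial carriers.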

How the data were processed

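For the 6 libraries, the authors deposited raw read counts per gene, as the column names in the file headers say. Per the labels, libraries were made with an mRNA-seq kit from TRIzol RNA, and the submitters' processing notes name the build GRCm38. Which aligner and counter were used, and whether strand was used, is not stated there. Other deposited columns give the authors' mean signal per gene, fold change as a ratio of EKO over WT, log2 fold change, p-value and adjusted p-value. The genes the deposited table marks as significant all had an adjusted p-value of at most 0.0498 and a fold size of at least 2.

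Here, edgeR 4.0.16 (R 4.3.3, quasi-likelihood F test, filterByExpr, TMM, genotype alone, Benjamini-Hochberg over 16121 genes) was the main test on the counts. The SE is the log2 difference over the square root of F. The count filter asks for 10 counts at the median library size in 3 libraries. Alternatives were other scalings, no filter, DESeq2 1.42.0, limma-voom (limma 3.58.1), a replicate block and each library left out. The fits were tested on simulated counts. Every pair of libraries differed beyond sampling noise. CPM is TMM-scaled, and TPM uses the longest principal GENCODE M21 transcript (99.8% of IDs matched); coordinates are those of the table. For libraries with 0 counts, 3 counts (0.154 to 0.192 CPM) is the limit. Promoter sequences are from RefSeq.

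The members, gene lists and tests were chosen with earlier results of these data known. The text names the 10 genes, the 3 tested genes of each list with the smallest p, list genes with at most 3 counts in every library, and the 3 genes most like each of the 3 most abundant members. The symbols Zic1 and Gyk had no row and were not analysed here.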

Additional observations from a re-analysis of the deposited data

How the results depend on the processing

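The number of genes called over all genes was 0 in the edgeR test, and of the thermogenic genes 0. DESeq2 gave 3392 and 4, limma-voom with sample quality weights 4101 and 3, and an edgeR adjusted p under 0.10 gave 3560 and 4. With 1 library left out, the counts ranged from 0 to 443 genes and from 0 to 1 member, and the highest of both came without WT replicate 2. The other scalings, no count filter, limma-voom without weights and the newer edgeR dispersion fit (added after seeing the data) gave 0 and 0. The replicate block gave 0 genes and 0 members as well. Same-numbered libraries had correlations of 0.27, -0.31 and -0.35, on log CPM after each genotype's mean was subtracted. With 3 libraries per genotype, these values cannot decide whether same-numbered libraries shared more than a number. Esrra alone changed sign among the 8, ranging from -0.01 (without WT replicate 2) to 0.19 with 1 library left out. Over all alternatives the adjusted p ranged from 0.000181 to 0.229 for Ucp3, 0.0109 to 0.233 for Prdm16, 0.00988 to 0.233 for Dio2, 0.0448 to 0.279 for Cox8b and 0.0546 to 0.370 for Ucp2. The causes of these differences between settings were not tested. Scaling by library totals moved the log2 difference of all genes by -0.099. Depth limits Ucp1 and Elovl3 in both genotypes and Cox8b in EKO, and Dio2 was also low in WT (14 to 30 counts).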

Other observations

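Tissue forms of mitochondrial genes other than Cox8b also stood out in single libraries, named here after their values were seen. The testis forms of cytochrome c oxidase were high in WT replicate 2: Cox8c was at 0, 0 and 1.09 CPM in EKO replicates 1 to 3 and at 0.113, 25.7 and 0 CPM in WT replicates 1 to 3. Cox6b2 was at 1.36, 0.192 and 3.77 CPM in EKO and at 1.98, 20.4 and 2.41 CPM in WT. The mitochondrial transcription factor Tfam, a target of the PGC-1 pathway, was at 20.3, 21.5 and 23.0 CPM in EKO and at 24.3, 54.9 and 20.1 CPM in WT, so its level in WT replicate 2 set its mean of 33.1 ± 19.0 CPM. Its log2 difference was -0.61 with all libraries and -0.09 without that library. Testis markers summed to 2502 CPM in WT replicate 2, and their part in these values was not tested.

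The heart and muscle form Cox6a2 went the other way from Cox8b, at 2.12, 2.25 and 1.32 CPM in EKO and at 1.30, 0.327 and 0.616 CPM in WT, with no overlap (log2 1.34 ± 0.54 SE, edgeR adjusted p = 0.146). Fabp3, a fatty acid binding protein of heart and brown fat, was at 2.06, 1.86 and 19.3 CPM in EKO and at 0.622, 3.81 and 1.49 CPM in WT, with EKO replicate 3 far above the rest. That library also had the most of the hepatocyte marker Alb, at 122 CPM, against at most 38.9 CPM in any other. Testis markers summed to 130 CPM there. The part of such transcripts in its Fabp3 level was not tested.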
